A study of Homo sapiens with 8 samples.

Results

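The collagen gene family was examined after knockdown of GRHL2 in OVCA429, a long-established line of human ovarian carcinoma cells. Genes were taken as members where the symbol in the deposited table read COL, a number, A and a number, which gave 44 chains of 57820 genes. The cells carried a short hairpin RNA (shRNA) against GRHL2 (shGRHL2) or, as the control, an shRNA against luciferase (shLuc), and both stable lines were grown under puromycin selection. A single GRHL2 hairpin was used. GRHL2 is a transcription factor of epithelial cells that opposes epithelial-mesenchymal transition, and the comparison asks what its loss does to gene expression. Total RNA was sequenced, and each group has 4 samples, titled rep1 to rep4. Their descriptions carry run-like suffixes and the values of abundant genes agree closely, so each group is treated as 1 library sequenced in 4 runs. The spread given after ± is therefore the SD between 4 runs of 1 library. After a log2 difference it is the SDs of both libraries combined, as the root of their summed squares. On this reading separate cultures were not compared, and p-values are left out. Values are FPKM, fragments scaled to the effective length of the transcript and to the fragments of the run, so levels of different genes can be compared per length.

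Collagens are secreted or membrane proteins in which 3 chains wind into a triple helix. The chains may be alike or come from different genes, depending on the type. Fibrillar collagens (I, II, III, V, XI, XXIV, XXVII) form the fibrils of connective tissue, collagen IV forms the sheet-like network of basement membranes, and collagen VI forms beaded filaments near cell surfaces. FACIT collagens decorate fibrils, collagen VII anchors basement membranes, collagens XV and XVIII are proteoglycan-linked multiplexins of the basement membrane zone, collagens VIII and X form hexagonal networks, and collagens XIII, XVII, XXIII and XXV span the cell membrane. Epithelial cells mainly make the basement membrane types, while fibrillar and beaded types are typical of mesenchymal cells.

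The targeted gene, GRHL2, had 0.13, 0.15, 1.17 and 0.10 FPKM in shGRHL2 runs, against 31.5, 38.69, 33.35 and 31.98 FPKM in shLuc runs. Its mean level in the knockdown was 1.1% of the control mean, and most of the shGRHL2 mean came from replicate 3. Estimated depth was 9870000 to 10090000 fragments per shGRHL2 run and 9240000 to 9550000 per shLuc run. One mitochondrial ribosomal RNA, MT-RNR2, took 23.7% to 23.8% of the fragments in shGRHL2 runs, against 14.7% in every shLuc run, and FPKM is relative to the fragments of the run. In these bulk samples, fewer cells of a type and less RNA per cell cannot be told apart.

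Of the 44 chains, 21 had a mean of 1 FPKM or more in at least 1 group and were compared, as were 15019 genes in all. Differences are of mean log2(FPKM + 1), shGRHL2 minus shLuc, and a gene is called higher or lower where this difference is 1 (2-fold) or more in size. By this limit 10 of the 21 chains were higher in shGRHL2, against 4.97% of all genes compared, and 2 were lower, against 7.24%. At a limit of 4-fold, 7 chains were higher, against 1.11% of all genes, and 1 was lower, against 1.71%. The 4-fold count of higher chains was 5 in TPM, where COL6A1 (1.91) and COL6A2 (1.97) fell short, 6 without shLuc replicate 2, and 7 or 8 otherwise. The share of all genes was not recomputed for these settings. The median difference was 0.96 over the 21 chains and -0.10 over all genes compared. All 4 shGRHL2 runs lay above all 4 shLuc runs for 16 chains, against 18.5% of all genes, and below them for 3 chains, against 33.2%. A chain that passed the level filter only through shGRHL2 had to have the higher mean there, whether or not it was called higher. This holds for COL6A3, COL5A1, COL12A1, COL7A1 and COL13A1, of which COL7A1 was within 2-fold (0.74). Among the 16 chains at 1 FPKM or more in shLuc, 6 were higher by 2-fold, against 2.78% of the genes at that level, and 2 were lower, against 7.79%, with a median difference of 0.94 for the chains and -0.14 for the genes.

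**Figure D1:**
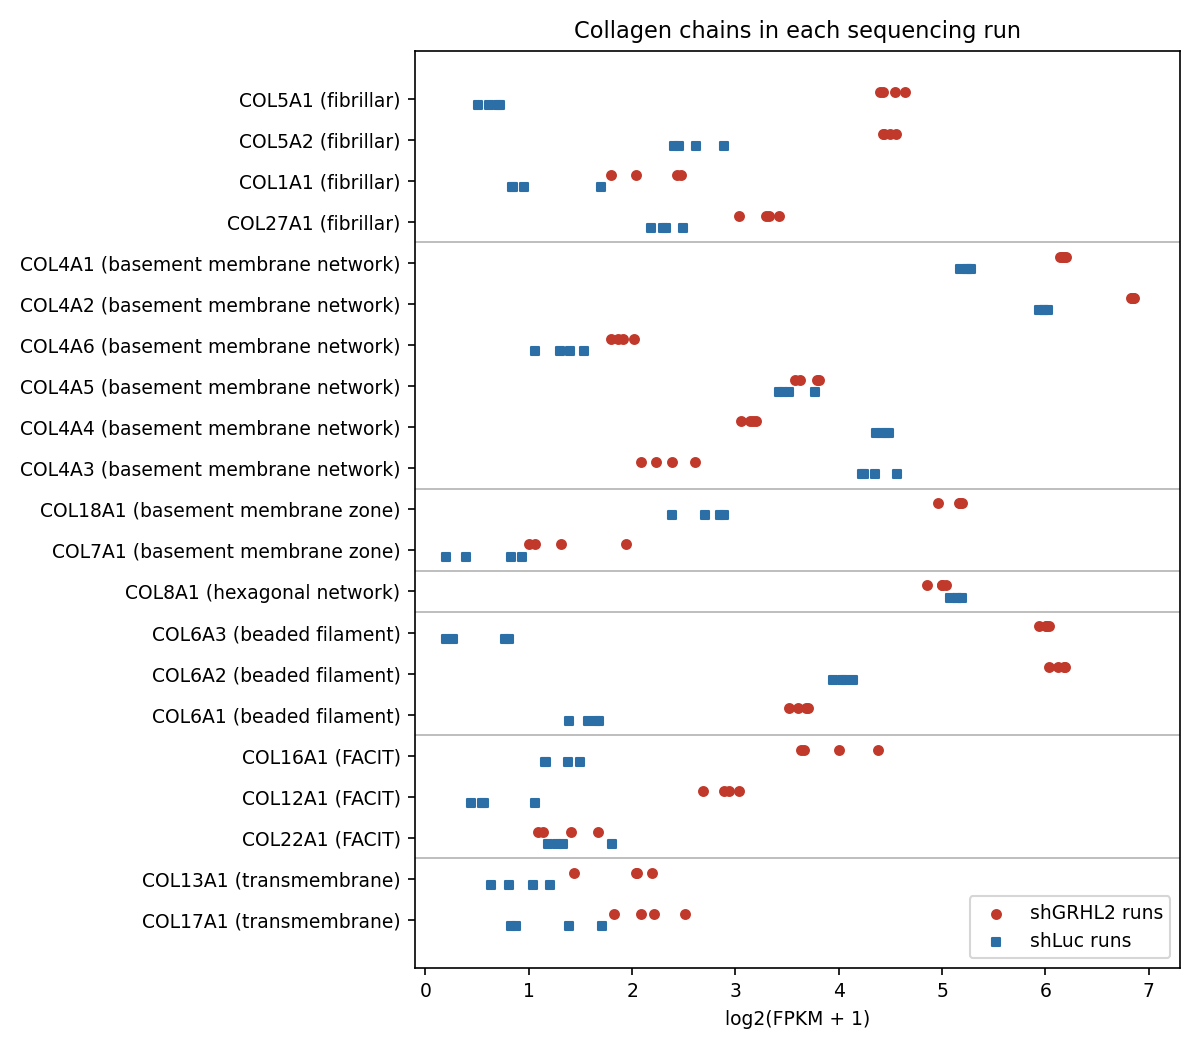
Level of each of the 21 compared collagen chains in each run, as log2(FPKM + 1), grouped by class, with shGRHL2 runs as circles and shLuc runs as squares. All shGRHL2 runs lie above all shLuc runs for 16 chains, against 18.5% of all genes compared. They all lie below the shLuc runs for COL4A3, COL4A4 and COL8A1, against 33.2% of all genes compared.

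Summed over all 44 chains, collagen transcripts came to 507 ± 5.97 FPKM in shGRHL2 and 229 ± 5.62 FPKM in shLuc, 2.21-fold higher with the knockdown. The basement membrane network chains made up 41.7% ± 0.656 of this sum in shGRHL2 and 66.0% ± 0.685 in shLuc, although their own sum was higher in shGRHL2, at 212 FPKM against 151 FPKM in shLuc. The beaded-filament chains made up 28.3% ± 0.762 in shGRHL2 and 7.89% ± 0.299 in shLuc. The fibrillar chains made up 11% ± 0.416 in shGRHL2 and 4.88% ± 0.504 in shLuc. The class make-up thus differed between the libraries by far more than between runs. The basement membrane zone chains held 7.01% ± 0.631 in shGRHL2 and 2.67% ± 0.289 in shLuc, and FACIT chains held 4.56% ± 0.683 in shGRHL2 and 1.90% ± 0.323 in shLuc. The hexagonal network share was smaller in shGRHL2, at 6.13% ± 0.383 against 15.3% ± 0.573 in shLuc, while its FPKM sum was 31.1 in shGRHL2 and 35.0 in shLuc. Transmembrane chains held 1.26% ± 0.219 in shGRHL2 and 1.01% ± 0.276 in shLuc, a difference within the spread between runs.

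**Figure D2:**
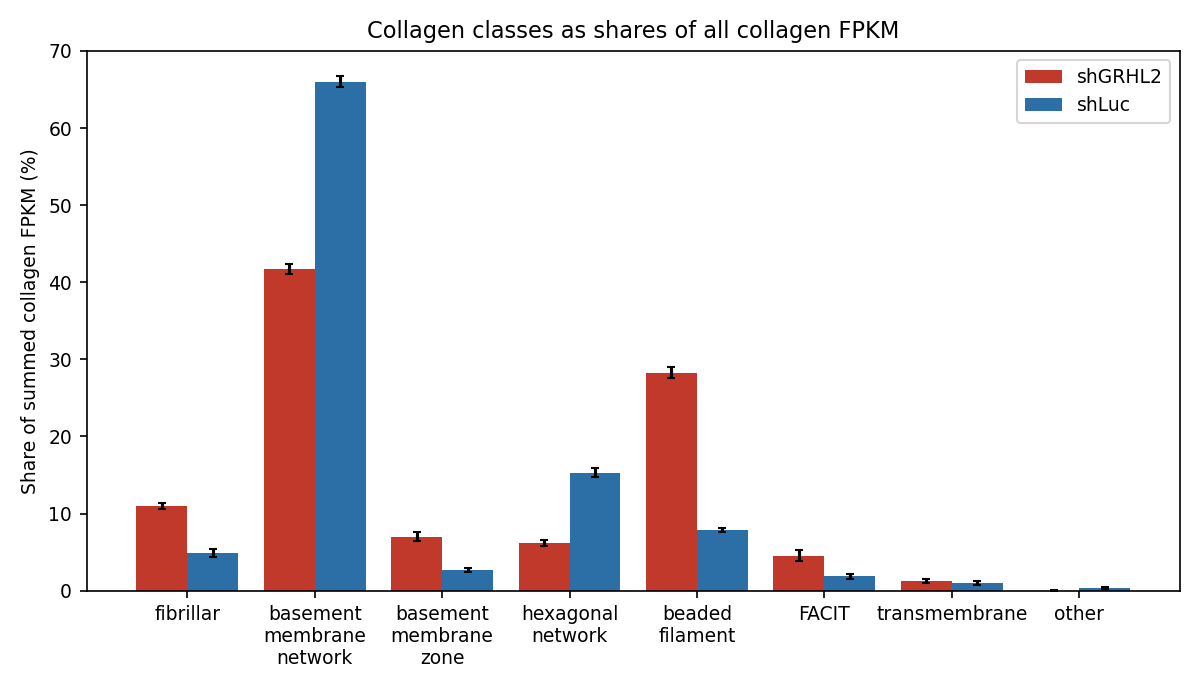
Share of the summed collagen FPKM held by each class, in percent, as the mean of 4 runs with the SD between runs, for shGRHL2 (left bar of each pair) and shLuc (right bar). Basement membrane network chains hold 41.7% in shGRHL2 and 66.0% in shLuc, and beaded-filament chains hold 28.3% in shGRHL2 and 7.89% in shLuc.

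The order of the chains changed below its top. COL4A2 was first and COL4A1 next in both groups. In shGRHL2 the next places were taken by COL6A2, whose runs overlapped those of COL4A1, and COL6A3, ahead of COL18A1 and COL8A1, which overlapped each other. In shLuc the next places were taken by COL8A1, which overlapped COL4A1, and by COL4A4 and COL4A3, which overlapped each other, with COL6A2 after them. COL6A3 held place 4 in shGRHL2 and place 24 in shLuc, COL5A1 place 7 in shGRHL2 and place 20 in shLuc, and COL4A3 place 15 in shGRHL2 and place 5 in shLuc.

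Collagen VI, the beaded-filament collagen, is built from 1 alpha1, 1 alpha2 and 1 alpha3 chain. All 3 genes were higher in shGRHL2, against 4.97% of all genes compared, and COL6A3 passed the filter only through shGRHL2. COL6A3, which encodes the long alpha3 chain and lies on chromosome 2 (GRCh37, 238232646 to 238322971, minus strand), had 63.23, 64.35, 60.16 and 63.05 FPKM in shGRHL2 runs, against 0.15, 0.75, 0.20 and 0.71 FPKM in shLuc runs. Its mean was 62.7 ± 1.79 FPKM in shGRHL2 and 0.453 ± 0.321 FPKM in shLuc, a log2 difference of 5.48, which is the largest of the family. The ratio of the mean FPKM was 139-fold, larger than the log2 difference implies because the added 1 damps low values. The shLuc value rests on about 135 estimated fragments in all 4 runs and that of shGRHL2 on about 20041. Such estimates take 1 effective length per gene for all runs and are rough. COL6A2 had 68.46, 71.54, 64.73 and 71.96 FPKM in shGRHL2 runs, against 15.30, 16.60, 15.67 and 14.43 FPKM in shLuc runs, a log2 difference of 2.09. COL6A1 had 10.45, 12.06, 11.19 and 11.84 FPKM in shGRHL2 runs, against 1.98, 1.62, 2.15 and 2.20 FPKM in shLuc runs, a log2 difference of 2.05. The shLuc cells thus had transcripts of the alpha1 and alpha2 chains and close to none of alpha3, while shGRHL2 cells had all 3. The ratio of COL6A3 to COL6A2 was 0.907 ± 0.0244 in shGRHL2 and 0.0292 ± 0.0208 in shLuc, whereas that of COL6A1 to COL6A2 was 0.165 ± 0.0087 in shGRHL2 and 0.129 ± 0.0231 in shLuc, with all shGRHL2 runs above all shLuc runs only narrowly. COL6A1 and COL6A2 are neighbours on chromosome 21 and COL6A3 is not linked to them. COL6A5 was at 0 in every run and COL6A6 averaged 0.123 FPKM in shGRHL2 and 0.125 FPKM in shLuc, so the alternative alpha chains of collagen VI were not detectable or nearly so.

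The start regions of COL6A3 and COL6A2 are shown because the chains share a trimer and differed widely in level in the control. Each is the 250 bases before the RefSeq start on build GRCh38.p14, a later build than that of the files (hg19, the same assembly as GRCh37), and which start these cells use was not measured. Capitals mark matches on either strand to the GC box GGGCGG and, in COL6A2, to the TATA box TATAAA. COL6A3 lies at chr2:237414165-237414414 on the minus strand and COL6A2 at chr21:46097862-46098111 on the plus strand.
COL6A3: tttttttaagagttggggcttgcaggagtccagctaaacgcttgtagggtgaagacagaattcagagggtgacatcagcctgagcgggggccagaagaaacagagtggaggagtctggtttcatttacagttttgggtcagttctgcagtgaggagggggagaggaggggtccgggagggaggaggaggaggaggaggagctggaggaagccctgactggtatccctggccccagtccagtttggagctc
COL6A2: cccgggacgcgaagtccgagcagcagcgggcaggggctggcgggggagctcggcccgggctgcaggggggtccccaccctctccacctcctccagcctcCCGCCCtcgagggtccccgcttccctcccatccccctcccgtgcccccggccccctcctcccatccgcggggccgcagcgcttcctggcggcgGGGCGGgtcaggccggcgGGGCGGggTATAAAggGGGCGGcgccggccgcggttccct
The COL6A3 stretch held 3 CpG dinucleotides and no match to either motif. The COL6A2 stretch held 28 CpG dinucleotides and 5 matches, of which the TATA box stood close to the start between GC boxes.

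The fibrillar class had 11 chains, of which 4 were compared and 3 were higher by 2-fold, against 4.97% of all genes compared. Of these 3, COL5A1 passed the filter only through shGRHL2. Collagen V, which regulates the width of collagen fibrils, is mostly made of alpha1 and alpha2 chains. COL5A1 (chromosome 9, GRCh37, 137533649 to 137736689, plus strand) had 20.16, 20.47, 22.28 and 23.96 FPKM in shGRHL2 runs, against 0.42, 0.65, 0.63 and 0.53 FPKM in shLuc runs, a log2 difference of 3.87 and a ratio of mean FPKM of 39.0. COL5A2 had 20.62, 22.54, 20.46 and 21.50 FPKM in shGRHL2 runs, against 5.16, 4.31, 4.49 and 6.41 FPKM in shLuc runs, a log2 difference of 1.88. As in collagen VI, 1 chain was near the filter limit in shLuc while its partner was present. The ratio of COL5A1 to COL5A2 was 1.02 ± 0.0965 in shGRHL2 and 0.114 ± 0.0369 in shLuc. The alternative chain COL5A3 was at 0 in every run.

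Collagen I, the main fibrillar collagen of bone, skin and stroma, is made of alpha1 and alpha2 chains. COL1A1 had 3.10, 4.55, 4.41 and 2.48 FPKM in shGRHL2 runs, against 0.94, 0.79, 2.24 and 0.80 FPKM in shLuc runs, a log2 difference of 1.10 ± 0.524. The call is close to its limit, and with values rescaled to TPM the difference was 0.98. COL1A2 had 0.02 FPKM in shGRHL2 replicate 3 and 0 in the other runs of both groups, and COL3A1 averaged 0 in shGRHL2 and 0.005 FPKM in shLuc. Transcripts of the alpha2 chain of collagen I and of collagen III, both typical products of fibroblasts, were therefore close to undetectable in either library. COL27A1, a fibrillar chain of cartilage, had 9, 7.22, 9.73 and 8.83 FPKM in shGRHL2 runs, against 3.55, 4.02, 3.91 and 4.61 FPKM in shLuc runs, and its log2 difference of 0.95 fell short of the limit although the runs did not overlap. It passed, at 1.00 to 1.09, with a pseudocount of 0.1, with equal medians, without the mitochondrial ribosomal RNAs, without shGRHL2 replicate 2 and without shLuc replicate 4. The cartilage chains COL2A1, COL11A1 and COL11A2 and the chain COL24A1 averaged at most 0.248 FPKM in shGRHL2 and 0.253 FPKM in shLuc.

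All 6 collagen IV genes were compared, and the genes of each head-to-head pair had differences of the same sign, that of COL4A5 within the spread between runs. The pairs are COL4A1 with COL4A2 on chromosome 13, COL4A3 with COL4A4 on chromosome 2 and COL4A5 with COL4A6 on chromosome X. The RefSeq starts of the pairs lie 126 bases apart for COL4A1 and COL4A2, 418 for COL4A4 and COL4A3, and 379 or 1415 for COL4A5 and COL4A6, depending on which of 2 COL4A6 starts is taken. The ubiquitous network is made of alpha1 and alpha2 chains. COL4A2 had 113.44, 115.19, 114.09 and 112.83 FPKM in shGRHL2 runs, against 62.21, 62.37, 64.25 and 60.39 FPKM in shLuc runs. COL4A1 had 72.24, 70.65, 71.26 and 69.71 FPKM in shGRHL2 runs, against 35.07, 37.72, 36.92 and 37.10 FPKM in shLuc runs. Both were the most abundant collagen transcripts in both libraries and both fell just short of 2-fold, with log2 differences of 0.86 ± 0.0381 for COL4A2 and 0.93 ± 0.0490 for COL4A1. With the mitochondrial ribosomal RNAs left out of the scaling, the differences were 1.00 for COL4A2 and 1.07 for COL4A1, and both passed it. The ratio of COL4A1 to COL4A2 was 0.623 ± 0.0102 in shGRHL2 and 0.589 ± 0.0241 in shLuc, and the runs overlapped. In the annotation lifted to GRCh37 these genes overlap by 1346 bases on opposite strands, and whether the counting used the strand of the kit is not given in the sources used here.

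The network of specialised basement membranes, as in kidney glomeruli, lung and the inner ear, is made of alpha3, alpha4 and alpha5 chains. COL4A3 (chromosome 2, GRCh37, 228029340 to 228179508, plus strand) had 3.70, 5.12, 4.24 and 3.25 FPKM in shGRHL2 runs, against 17.98, 17.73, 22.67 and 19.34 FPKM in shLuc runs. Its mean of 4.08 ± 0.804 FPKM in shGRHL2 was 0.210 times that of 19.4 ± 2.27 FPKM in shLuc, a log2 difference of -2.02. COL4A4 (chromosome 2, GRCh37, 227867430 to 228029169, minus strand) had 7.28, 8.16, 7.80 and 7.99 FPKM in shGRHL2 runs, against 19.50, 20.92, 21.46 and 20.25 FPKM in shLuc runs, a log2 difference of -1.29. MFF-DT, a non-coding gene, overlaps COL4A3 on the opposite strand and averaged 1.08 FPKM in shGRHL2 and 1.49 FPKM in shLuc. COL4A3 and COL4A4 were the 2 chains of the family that were lower by 2-fold, and COL4A3 only just passed 4-fold. Its difference was -1.91 with equal medians, -1.89 without the mitochondrial ribosomal RNAs, -1.98 without shGRHL2 replicate 1, -1.93 without shGRHL2 replicate 4 and -1.94 without shLuc replicate 3, so that 0 chains were then lower by 4-fold. COL4A5 had 12.85, 11.31, 10.96 and 13.05 FPKM in shGRHL2 runs, against 10.48, 12.64, 9.73 and 10.03 FPKM in shLuc runs, and its log2 difference of 0.16 ± 0.195 was within the spread between runs. A Y RNA gene overlaps COL4A5 by 107 bases on the opposite strand and averaged 20.2 FPKM in shGRHL2 and 0 in shLuc. The fragments behind that level were not estimated, and the FPKM of so short a stretch can rest on few of them. The part of the Y RNA gene in the COL4A5 values was not tested. The ratio of COL4A3 to COL4A4 was 0.522 ± 0.0914 in shGRHL2 and 0.945 ± 0.0867 in shLuc, so the alpha3 chain was lower than its neighbour by more. The ratio of COL4A4 to COL4A5 was 0.653 ± 0.0759 in shGRHL2 and 1.94 ± 0.234 in shLuc. COL4A6, which pairs with alpha5 chains in smooth muscle and some epithelial basement membranes, had 2.64, 3.05, 2.77 and 2.48 FPKM in shGRHL2 runs, against 1.90, 1.64, 1.47 and 1.08 FPKM in shLuc runs, a log2 difference of 0.57.

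Stretches between head-to-head genes are shown for the pair with the most abundant chains and for the pair that was lower. The third pair, COL4A5 and COL4A6, had small positive differences and is not shown. The first is the whole 126 bases between the starts of COL4A1 and COL4A2, chr13:110307158-110307283, read on the COL4A2 strand. The second is the 250 bases before the COL4A3 start, chr2:227164374-227164623 on the plus strand, all of it between COL4A4 and COL4A3. Both are RefSeq sequence on GRCh38.p14. Capitals mark, on either strand, the GC box GGGCGG in both stretches and the E-box CAGGTG, which only the second holds. CAGGTG is the form of the E-box bound by the repressors ZEB1 and ZEB2.
COL4A1-COL4A2: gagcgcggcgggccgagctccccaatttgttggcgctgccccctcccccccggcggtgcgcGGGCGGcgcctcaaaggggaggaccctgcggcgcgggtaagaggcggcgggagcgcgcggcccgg
COL4A3: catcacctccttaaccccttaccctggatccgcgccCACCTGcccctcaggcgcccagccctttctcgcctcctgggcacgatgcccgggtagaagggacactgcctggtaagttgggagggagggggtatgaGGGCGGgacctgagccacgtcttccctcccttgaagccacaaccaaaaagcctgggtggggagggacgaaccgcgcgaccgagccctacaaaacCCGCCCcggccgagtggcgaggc
The stretch between COL4A1 and COL4A2 held 20 CpG dinucleotides and 1 GC box. The stretch before COL4A3 held 17 CpG dinucleotides and 3 matches, 1 of them to CAGGTG. That match lies at chr2:227164410-227164415 and is the same site in the windows of COL4A3 and COL4A4.

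Of the 44 collagen genes, 32 had a RefSeq window of 300 bases, 250 before the start and 50 after it, and 16 of the 21 compared chains were among them. Each window was searched on both strands for the Grainyhead motif AACNNGTT and its special case AACCGGTT, for the E-box CAGGTG, for the GC box GGGCGG and for the TATA box TATAAA. AACNNGTT was found in 1 collagen window, that of COL10A1, against 4.36% of all genes with a window, and AACCGGTT in 0, against 0.165%. CAGGTG was found in 5 collagen windows, or 15.6%, against 24.1% of all genes, and COL16A1, COL4A3 and COL4A4 were the compared chains among them. GGGCGG was found in 21, or 65.6%, against 48.3% of all genes, and TATAAA in 7, or 21.9%, against 14%. The median number of CpG dinucleotides was 29 for the 7 chains that were higher and had a window, 16 for the 7 within 2-fold and 16 for all genes. It was 26.5 for the 2 lower chains, 21 for the 16 chains that were not compared and 23 for all 32. COL18A1 had the most, with 46, and COL6A3 the fewest among the higher chains, with 4. A match is a description of these letters and not a bound site.

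**Figure D3:**
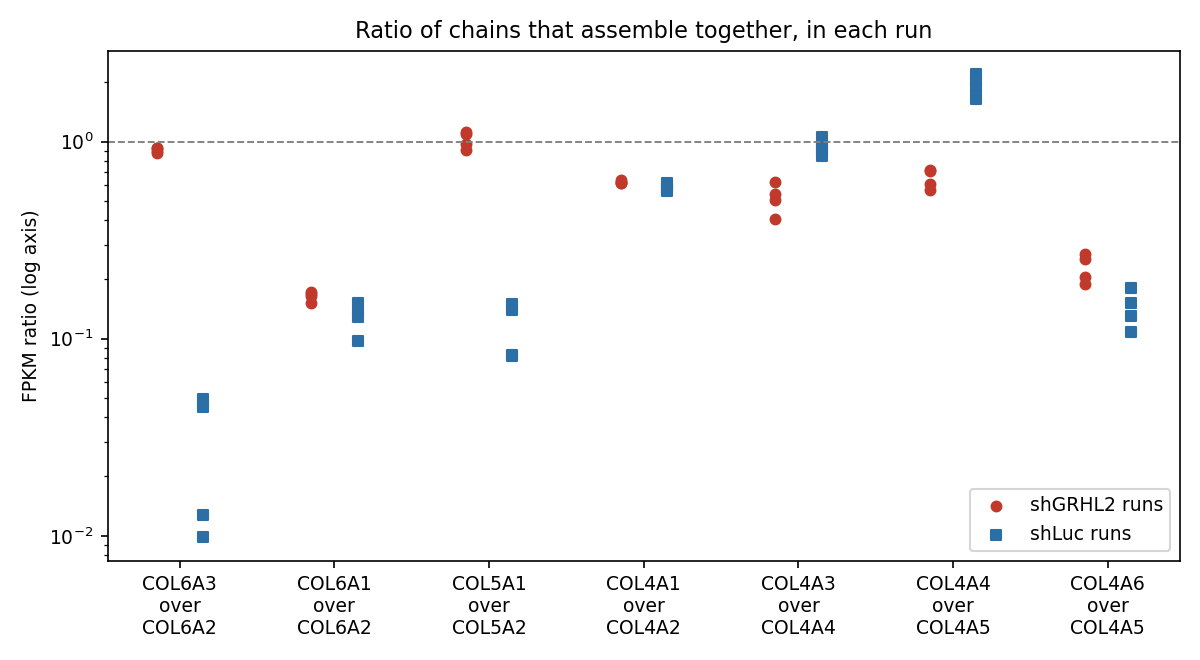
FPKM ratio of chains that assemble into the same trimers, in each run, on a log axis, with shGRHL2 runs as circles to the left and shLuc runs as squares to the right of each pair. COL6A3 over COL6A2 averages 0.907 in shGRHL2 and 0.0292 in shLuc, COL5A1 over COL5A2 averages 1.02 in shGRHL2 and 0.114 in shLuc, and COL4A1 over COL4A2 stays at 0.623 in shGRHL2 and 0.589 in shLuc.

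In the basement membrane zone class, COL18A1, the multiplexin whose C-terminal fragment is endostatin, had 35.62, 30.13, 34.89 and 34.99 FPKM in shGRHL2 runs, against 6.22, 5.51, 6.41 and 4.22 FPKM in shLuc runs. The log2 difference was 2.42 ± 0.254. SLC19A1, a folate carrier gene on the opposite strand, overlaps the annotated gene and averaged 6.38 FPKM in shGRHL2 and 3.24 FPKM in shLuc, and its part in the COL18A1 values was not tested. COL7A1, the anchoring-fibril chain, averaged 1.61 ± 0.857 FPKM in shGRHL2 and 0.535 ± 0.363 FPKM in shLuc, a log2 difference of 0.74 ± 0.555. The other multiplexin, COL15A1, averaged 0.005 FPKM in shGRHL2 and 0 in shLuc, so transcripts of the other multiplexin were close to undetectable.

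Of the 10 FACIT chains, 3 were compared. COL16A1, found in fibrils and near basement membranes, had 11.66, 14.98, 11.43 and 19.82 FPKM in shGRHL2 runs, against 1.61, 1.25, 1.82 and 1.23 FPKM in shLuc runs, a log2 difference of 2.62 ± 0.386. COL12A1, which coats collagen I fibrils in tendon and other dense tissue, had 6.68, 7.17, 6.43 and 5.42 FPKM in shGRHL2 runs, against 0.46, 0.36, 1.09 and 0.48 FPKM in shLuc runs, a log2 difference of 2.23 ± 0.315. Both were higher in every shGRHL2 run than in any shLuc run. COL22A1 averaged 1.55 ± 0.490 FPKM in shGRHL2 and 1.68 ± 0.559 FPKM in shLuc, on about 36 fragments in shGRHL2 and 37 in shLuc, and no difference was detectable at this depth. Of the collagen IX chains, COL9A1 was at 0, COL9A2 averaged 0.180 FPKM in shGRHL2 and 0.5 FPKM in shLuc, and COL9A3 averaged 0.513 FPKM in shGRHL2 and 0.0425 FPKM in shLuc.

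COL8A1, a short network collagen of vessel walls and the corneal endothelium, had 31.02, 31.01, 31.80 and 27.96 FPKM in shGRHL2 runs, against 32.65, 34.47, 34.47 and 35.55 FPKM in shLuc runs. The shGRHL2 runs all lay below, but the log2 difference was only -0.17 ± 0.0940, close to the median of all genes. Its partner chain COL8A2 had 0.30, 0.07, 0.26 and 0.30 FPKM in shGRHL2 runs, against 0.17, 0.15, 0.06 and 0.27 FPKM in shLuc runs, so collagen VIII transcripts were almost wholly of the alpha1 chain in both libraries. COL10A1, a marker of hypertrophic cartilage, averaged 0.373 FPKM in shGRHL2 and 0.553 FPKM in shLuc.

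Of the transmembrane chains, COL13A1, found at sites of cell-matrix adhesion and the neuromuscular junction, had 3.10, 3.13, 1.71 and 3.58 FPKM in shGRHL2 runs, against 0.55, 1.06, 1.30 and 0.75 FPKM in shLuc runs. Its log2 difference of 1.01 ± 0.419 only just passed the limit, and it was under it, at 0.91 to 0.97, without shGRHL2 replicate 1, 2 or 4 or shLuc replicate 1 or 4, and at 0.89 in TPM. COL17A1, the hemidesmosome collagen of basal epithelial cells, averaged 3.53 ± 0.897 FPKM in shGRHL2 and 1.38 ± 0.710 FPKM in shLuc, a log2 difference of 0.96 ± 0.510, which passed the limit, at 1.02 to 1.39, with a pseudocount of 0.1, with equal medians, without the mitochondrial ribosomal RNAs, without shGRHL2 replicate 2 and without shLuc replicate 1 or 2. COL23A1 averaged 0 in shGRHL2 and 0.01 FPKM in shLuc, and COL25A1 was at 0 in every run. The calls of this class rest on few fragments, about 258 in shGRHL2 and 77.1 in shLuc for COL13A1.

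**Figure D4:**
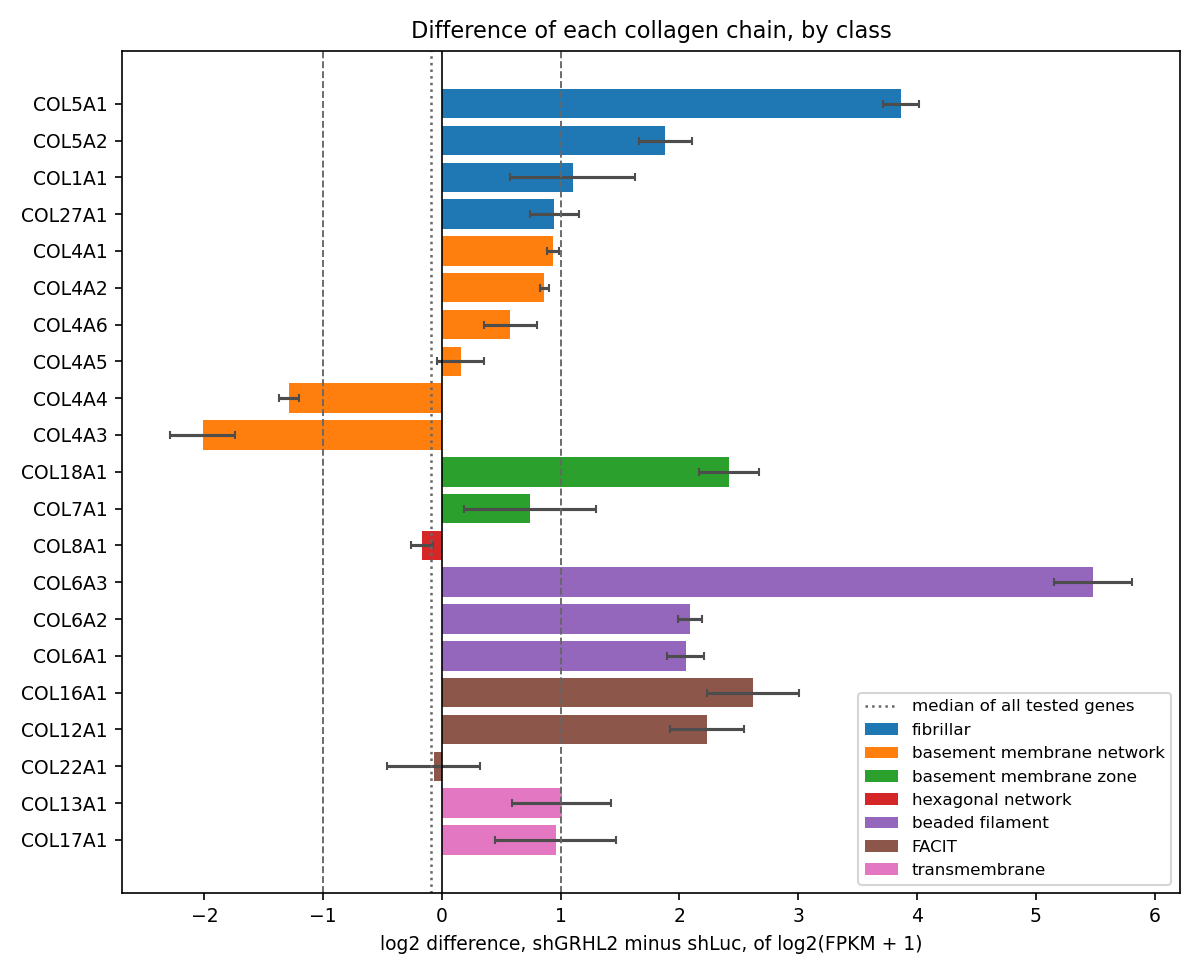
Difference in mean log2(FPKM + 1), shGRHL2 minus shLuc, of the 21 compared chains, coloured by class, with the combined SD between runs as error bars, dashed lines at the 2-fold limit and a dotted line at the median of all genes (-0.10). COL6A3 reaches 5.48 and COL5A1 3.87, COL4A3 and COL4A4 lie at -2.02 and -1.29, and most collagen IV and transmembrane chains lie near or under the limit.

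The other 23 chains averaged under 1 FPKM in both groups. Of these, 7 were at 0 in all 8 runs, namely COL5A3, COL6A5, COL9A1, COL11A1, COL19A1, COL20A1 and COL25A1. The other 16 had at most 0.513 FPKM in shGRHL2 (COL9A3) and 0.820 FPKM in shLuc (COL28A1), and their log2 differences ran between -0.77 and 0.52. COL28A1, a collagen of the nervous system, averaged 0.0600 FPKM in shGRHL2 and 0.820 FPKM in shLuc. Antisense genes named for collagens were low as well, the highest being COL4A2-AS1 with 0.960 FPKM in shGRHL2 and 0.543 FPKM in shLuc.

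Genes that act on collagen were counted in lists by role, and the counts are set against the 4.97% of all genes that were higher, the 7.24% that were lower and the median of -0.10. Among enzymes and chaperones of collagen folding and hydroxylation, 2 of 17 compared genes were higher by 2-fold (11.8%, against 4.97% of all genes) and 0 were lower (against 7.24%), with a median difference of 0.12. The other 15, or 88.2%, were within 2-fold, much like the 87.8% of all genes, as were 9 of the 21 chains. LEPRE1, which encodes the prolyl 3-hydroxylase P3H1, averaged 43.9 ± 1.24 FPKM in shGRHL2 and 14.1 ± 0.872 FPKM in shLuc, a log2 difference of 1.58, and LEPREL2, which encodes P3H3 and passed the filter only through shGRHL2, had one of 1.18. The most abundant member, P4HB, the beta subunit of prolyl 4-hydroxylase, averaged 335 ± 5.87 FPKM in shGRHL2 and 361 ± 3.75 FPKM in shLuc. Of the genes within 2-fold, log2 differences ran from -0.63 for FKBP14 to 0.78 for SERPINH1, the collagen chaperone HSP47. Among genes of procollagen export and propeptide removal, 1 of 9 was higher (11.1%, against 4.97%) and 0 lower (against 7.24%), with a median of 0.60. The higher gene was PCOLCE, an enhancer of propeptide cleavage, with 5.13 ± 1.06 FPKM in shGRHL2 and 1.57 ± 0.746 FPKM in shLuc, and SEC23A, a coat protein of export vesicles, had the highest level with 63.7 ± 2.94 FPKM in shGRHL2 and 35.2 ± 2.63 FPKM in shLuc.

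Of 6 crosslinking genes, 1 was higher (16.7%, against 4.97% of all genes) and 1 was lower (16.7%, against 7.24%), with a median difference of 0.11. LOX, a lysyl oxidase, averaged 9.16 ± 0.475 FPKM in shGRHL2 and 2.11 ± 0.178 FPKM in shLuc, a log2 difference of 1.71. TGM2, a transglutaminase and the most abundant gene of the list, averaged 366 ± 3.89 FPKM in shGRHL2 and 773 ± 3.27 FPKM in shLuc, a log2 difference of -1.08. Of 7 receptors, 2 were higher (28.6%, against 4.97%) and 0 lower (against 7.24%), with a median of 0.41. MRC2, an endocytic receptor for collagen, had the largest difference, with 35.7 ± 0.696 FPKM in shGRHL2 and 5.47 ± 0.414 FPKM in shLuc, a log2 difference of 2.51, and GPR56 (ADGRG1), a receptor that binds collagen III, had one of 1.2. ITGB1, the beta1 subunit of the collagen integrins and the most abundant receptor gene, averaged 294 ± 5.02 FPKM in shGRHL2 and 221 ± 5.15 FPKM in shLuc. Its compared alpha partners in the list did not follow it. ITGA2 averaged 57.0 FPKM in shGRHL2 and 92.3 FPKM in shLuc, a log2 difference of -0.69, and ITGA1 had one of 0.09. The epithelial collagen receptor DDR1 lay just inside the limit with a log2 difference of -0.98.

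Of 10 genes of collagen degradation, 6 were higher (against 4.97% of all genes) and 0 lower (against 7.24%), with a median difference of 1.28. Of the 6, MMP1, MMP2 and MMP9 passed the filter only through shGRHL2 and had to have the higher mean there. CTSK passed in the same way and was within 2-fold. MMP1, an interstitial collagenase, averaged 27 ± 1.34 FPKM in shGRHL2 and was listed at 0 in every shLuc run. MMP2, a gelatinase that also cuts collagen IV, averaged 34.2 ± 2.53 FPKM in shGRHL2 and 0.563 ± 0.097 FPKM in shLuc, a log2 difference of 4.49. MMP9, MMP14, MMP16 and the inhibitor TIMP1 were higher as well, with log2 differences of 3.61, 1.47, 1.81 and 1.09, while TIMP2 had -0.88. The higher genes thus included proteases and 1 inhibitor. TIMP1 had the highest level of the list in shGRHL2, with 78.9 ± 3.82 FPKM against 36.5 ± 1.16 FPKM in shLuc. Of 10 partners of fibrils and networks, 3 were higher (against 4.97%) and 0 lower (against 7.24%), with a median of 0.71, and FBN1 and BGN passed the filter only through shGRHL2. FN1, fibronectin, was the most abundant, with 2905 ± 29.1 FPKM in shGRHL2 and 236 ± 5.99 FPKM in shLuc, a log2 difference of 3.61, and the fibrillin genes FBN1 and FBN2 had differences of 3.33 and 1.18. NID1, nidogen, which links collagen IV to laminin, had 0.95 and was within 2-fold. The others within 2-fold were BGN with 0.98, NID2 with 0.48, SPARC with 0.38, AGRN with 0.02, HSPG2 with -0.51 and THBS1 with -0.51. BGN averaged 1.00 FPKM in shGRHL2 and 0.0125 FPKM in shLuc, so its difference is strongly damped by the added 1. These lists hold few genes and nothing particular to any of them was tested.

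**Figure D5:**
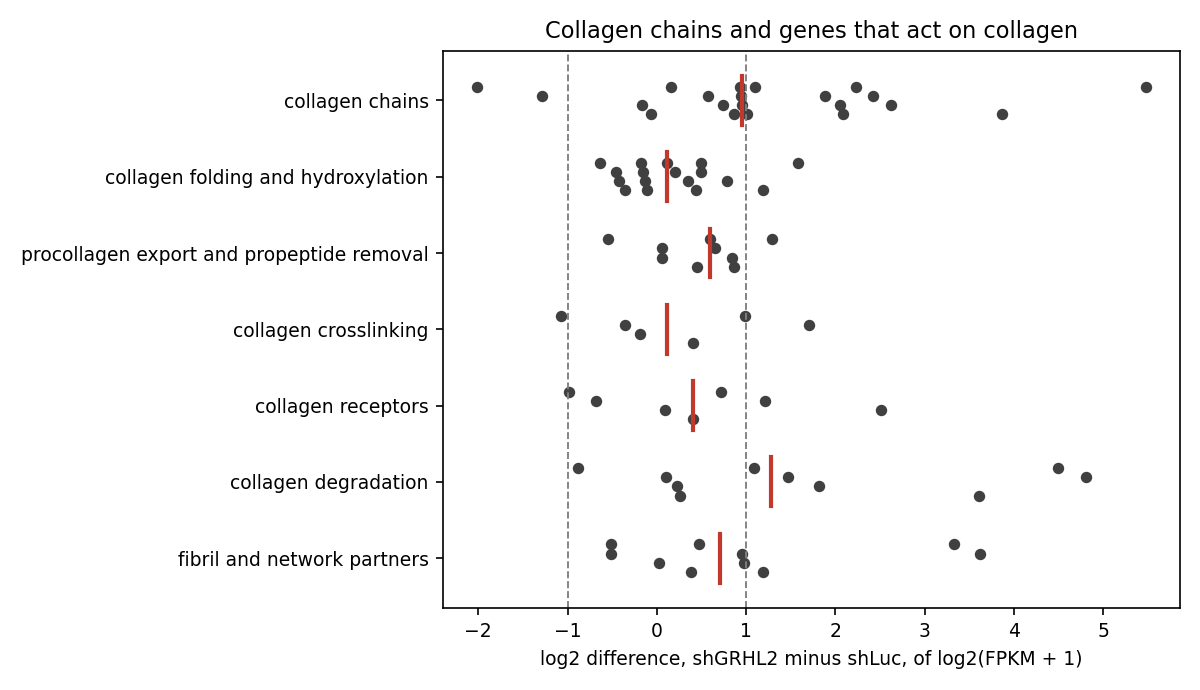
Difference in mean log2(FPKM + 1), shGRHL2 minus shLuc, of the compared collagen chains and of the compared genes of 6 lists by role, 1 point per gene (vertical position within a row only separates points), with the median of each list as a red line and dashed lines at the 2-fold limit. The median is 0.96 for collagen chains, 1.28 for degradation and 0.12 for folding and hydroxylation.

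Markers of other cell types were checked beside these values. The 6 fibroblast markers summed to 0.59 to 1.13 FPKM in shGRHL2 runs and 0.44 to 1.26 FPKM in shLuc runs, none averaged 1 FPKM or more, and DCN was at 0 in every run. The endothelial markers found in the table, 4 of 5, summed to 10.4 to 12.7 FPKM in shGRHL2 runs and 0.12 to 0.29 FPKM in shLuc runs. Nearly all of this was CDH5, which passed the filter only through shGRHL2, while VWF, CLDN5 and ERG averaged under 1 FPKM in both groups. The part of such cells in the collagen differences was not tested. Of 6 carcinoma epithelial markers, 4 were lower in shGRHL2 (EPCAM, KRT8, KRT18 and MUC16), against 7.24% of all genes compared, and 0 were higher, against 4.97%. MUC16 passed the filter only through shLuc and had to have the lower mean in shGRHL2. KRT7 lay just inside the limit with a log2 difference of -0.93, while PAX8 averaged 122 FPKM in shGRHL2 and 69.8 FPKM in shLuc. The 4 leukocyte markers summed to 2.68 to 4.33 FPKM in shGRHL2 runs and 1.06 to 2.37 FPKM in shLuc runs with CD3E at 0, and the 4 mesothelial markers summed to 36.5 to 42.4 FPKM in shGRHL2 runs and 28.8 to 36.2 FPKM in shLuc runs. Of 3 compared mesothelial markers UPK3B was lower (against 7.24% of all genes), while MSLN and LRRN4 had log2 differences of 0.59 and 0.52.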

How the data were processed

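Total RNA of OVCA429 cells was prepared with a stranded kit that removes ribosomal RNA and sequenced in paired-end mode. The authors demultiplexed, aligned and quantified reads with bcl2fastq 2.17.1.14, STAR 2.4.2a and RSEM 1.2.25 (labels and methods), took hg19 and Gencode v19, and deposited FPKM per gene. RSEM divides fragments shared between transcripts or related genes, so such values are estimates. The deposited lengths and effective lengths were used only for fragment estimates and scaling.

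The runs of a group were counted as 1 library because genes of at least 100 FPKM varied between runs by a median of 2.79% in shGRHL2 and 2.72% in shLuc (coefficient of variation), under the limit of 3%. Depth came from the step that 1 fragment makes in low FPKM values, of which 88.1% to 90.5% were whole multiples within 0.1 fragment. Genes with a mean of 1 FPKM or more in at least 1 group were compared on log2(FPKM + 1). Per-run values were given for chains past 2-fold or at 10 FPKM or more in a group and for their trimer partners. COL27A1 was added after its values were seen. Of each list the counts, the largest change past the limit and the highest level were given. Some list genes outside this rule were also named, past the limit or within it, among them SERPINH1, DDR1, TIMP2 and NID1. Chains, classes and lists were chosen with earlier results of these data known. Of the listed genes, 5 were matched by gene identifier and 1 was not matched. As alternatives, another pseudocount, filters, scalings, each run left out, and limma 3.58.1 (R 4.3.3) with and without a replicate block were run. limma treats runs as replicates and so compares the libraries, not the conditions. It was tested on simulated data. Start sequences and motif searches used RefSeq windows on GRCh38.p14, with Python 3.11.15.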

Additional observations from a re-analysis of the deposited data

Results flagged for a closer look

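Among 58 sets of 4 runs (21 chains and 8 class shares in each group), 3 held a run that lay far from the other 3, by a gap larger, relative to the range, than Dixon's critical value for 4 values. Chance gives about 1 in 20 such sets. COL18A1 was 30.13 FPKM in shGRHL2 replicate 2, below the other shGRHL2 runs. COL1A1 was 2.24 FPKM in shLuc replicate 3, above the other shLuc runs, and COL12A1 was 1.09 FPKM in the same run. The log2 differences with each run left out were 2.31 to 2.48 for COL18A1, 1.01 to 1.30 for COL1A1 and 2.16 to 2.37 for COL12A1.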

How the results depend on the processing

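The count of higher chains was 10 and ran between 8 (TPM, and a filter at 5 FPKM) and 14 (mitochondrial ribosomal RNAs left out), and that of lower chains was 2 (COL4A3 and COL4A4) under every setting tried. Except for limma, the share of all genes called was not recomputed under these settings. These counts and the 4-fold counts below therefore have no background share beside them. With a run left out, the counts were 9 to 11 and 2, and the median difference of the chains 0.91 to 1.02. The median was 1.52 with a pseudocount of 0.1, 0.16 with no filter (37 chains) and 1.88 with the filter at 5 FPKM (15 chains). Over all genes compared the median was -0.10, and between -0.18 (TPM) and 0.03 (mitochondrial ribosomal RNAs left out) under other scalings. Over the 21 compared chains and the 12 alternatives that can change a chain's own value, 226 of 252 values kept their call, 7 lost it (COL13A1 and COL1A1), 15 gained it (COL17A1, COL27A1, COL4A1, COL4A2 and COL7A1) and 4 changed sign, all of COL22A1, whose difference was 0.0396 with equal medians, 0.0178 without the mitochondrial ribosomal RNAs, and -0.18 to 0.0666 with a run left out. The 4-fold counts, recomputed after seeing the data, were 5 to 8 higher (6 to 7 with a run left out) and 1 lower, or 0 with equal medians and without the mitochondrial ribosomal RNAs (0 to 1 with a run left out). limma at an adjusted p under 0.05 with the fold limit called 10 chains higher and 2 lower, against 665 and 1020 of the 15019 genes compared. With the replicate number as a block it also called 10 and 2 chains, against 666 and 1025 genes. Run deviations did not follow the replicate numbers (correlations of same-numbered runs -0.07 to 0.01), so the numbers do not pair the runs.

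Class shares with a run left out were, in shGRHL2, 10.8 to 11.2% (fibrillar), 41.6 to 42.1% (basement membrane network), 6.83 to 7.31% (basement membrane zone), 6.01 to 6.31% (hexagonal network), 28 to 28.6% (beaded filament), 4.29 to 4.78% (FACIT) and 1.17 to 1.33% (transmembrane). In shLuc, in the same order of classes, they were 4.65 to 5.05%, 65.8 to 66.3%, 2.61 to 2.81%, 15 to 15.4%, 7.75 to 7.96%, 1.80 to 2.04% and 0.913 to 1.1%. Over the 21 compared chains alone, the basement membrane network share in shLuc was 66.8%, because fewer chains enter the sum. One library per group, as the samples are read here, 1 hairpin and no known separate cultures limit every value. Chains under about 2 FPKM rest on few fragments.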
